A study of Mus musculus with 6 samples.

Results

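Solute carriers are the membrane proteins, named Slc with a family number, that move amino acids, sugars, ions, metals, vitamins and nucleosides across cell membranes. RNA levels of these genes were described in mouse leukemia cells given GSK-LSD1, a small molecule that blocks LSD1, an enzyme that removes methyl groups from histones, and in the same kind of cells given DMSO, the solvent. The genes were taken by symbol: every row of the deposited table named Slc and a digit was used, except the mitochondrial Slc25a family and 15 carriers set aside by name. That rule found 208 of the 15035 rows, from 44 families, which were sorted here into 12 substrate classes. The name plasma membrane solute carriers only partly fitted the members. From general knowledge of the families, 38 were listed as carriers of the Golgi or endoplasmic reticulum, 17 as carriers of lysosomes, endosomes or vesicles and 1 as a mitochondrial carrier, while 145 were mainly plasma membrane carriers or had no assigned place. The other 7 rows named no carrier: the scaffold genes Slc9a3r1 and Slc9a3r2, the adaptor gene Slc4a1ap, the opposite-strand genes Slc7a6os and Slc36a1os, and the pseudogenes Slc2a4rg-ps and Slc22a13b-ps.

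The cells were leukemia cells of BALB/c bone marrow. Both groups carried, by retrovirus, mutant CSF3R, the G-CSF receptor, and mutant CEBPA, a transcription factor that directs granulocyte formation. One group was given 4 nM GSK-LSD1 for 48 h and the other DMSO for 48 h, in the same serum-containing medium, with 3 RNA-seq libraries each. The labels do not give the particular mutations, whether the cells are 1 clone, or whether each library had a culture of its own. The p-values therefore reflect only the spread among these libraries, which may be technical.

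Carriers of the plasma membrane bring in what a growing cell cannot make, and many run on the sodium gradient that the sodium pump keeps up. Others exchange one substrate for another or let it follow its gradient. Carriers of lysosomes return breakdown products such as amino acids, sialic acid and heme to the cytosol, and carriers of the Golgi supply activated sugars for glycosylation. In myeloid cells, arginine and peptide carriers and the metal carriers are known from macrophage biology, and folate, nucleoside and amino acid carriers are known from proliferating cells.

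The deposited values were read counts divided by 1 scaling factor per library, and they are called scaled reads here. Read counts recovered from them came to between 9572638 and 10199533 per library. Along the first principal component, which held 77.1% of the variance, the 3 GSK-LSD1 libraries lay on one side and the 3 DMSO libraries on the other. Myeloid markers were present in both groups, with a summed level of 13828 to 14426 scaled reads in GSK-LSD1 libraries and 11197 to 12002 in DMSO libraries over 8 genes, of which 5 were higher, 2 lower and 1 not called. Mast cell and basophil markers were abundant too, at 30462 to 31771 scaled reads with GSK-LSD1 and 22252 to 24553 with DMSO over 4 genes (2 higher, 1 lower, 1 not called). The 4 macrophage markers summed to 331 to 340 scaled reads with GSK-LSD1 and 89.6 to 108 with DMSO, and all 3 that could be tested were higher. The erythroid marker Alas2, the first enzyme of heme synthesis in red cells, was lower. It had 5.10, 7.25 and 4.87 scaled reads in the GSK-LSD1 libraries, against 40.0, 42.6 and 42.8 in the DMSO libraries. A gene was tested only with at least 10 scaled reads in at least 3 libraries. Alas2 reached that in the DMSO libraries only, so its groups had to differ in this direction. T cell markers reached at most 12.7 scaled reads and B cell markers at most 4.08. The stromal, endothelial and epithelial list was mostly Pecam1, which blood cells also express, and summed to 4724 to 4819 scaled reads with GSK-LSD1 and 3852 to 4329 with DMSO (3 higher, 1 lower). In such bulk libraries, fewer cells of a type and less RNA per cell cannot be told apart, and the part of these marker shifts in the carrier results was not tested.

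Of the 208 members, 146 had at least 10 scaled reads in at least 3 libraries and were tested. With GSK-LSD1, 40 members were higher, 22 were lower and 84 did not pass the threshold, by limma on log2(scaled reads + 1) with an adjusted p under 0.05 (Benjamini-Hochberg over all 11588 genes tested). The called share was 42.5% of tested members, and 41.1% of all tested genes were called. In the higher direction it was 27.4% of members against a background of 20.6% of all genes, and in the lower direction 15.1% against a background of 20.5%. The share of higher calls among called members was thus 64.5%, but it was 53.1% after quantile scaling of the libraries, with 34 higher and 30 lower. Among all called genes the share was 50.2%, and 44.4% after quantile scaling, so the members' share was above that of all genes in both. The median log2 fold change was 0.05 over tested members and -0.01 over all tested genes.

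Most changes were small. Among the 62 called members, 37 changed by less than 1.5-fold. A change of at least 2-fold was called upward for 11 members, a category that held 4.51% of all tested genes, and downward for 3, a category that held 0.975%. The values of the GSK-LSD1 and DMSO libraries did not overlap for 59 of the 62 called members, a share near the background of 94.6% among all 4762 called genes. For 62 of the 84 members that were not called, the 95% interval of the log2 fold change lay within 0.5 of 0, so a larger change fell outside their intervals. As a group, members took 0.737% to 0.748% of all scaled reads in GSK-LSD1 libraries and 0.675% to 0.713% in DMSO libraries, ranges that do not overlap. These counts are descriptions: 3 members (Slc15a3, Slc9a2 and Slc22a17) reached the filter through the GSK-LSD1 libraries only and 2 (Slc16a12 and Slc26a1) through the DMSO libraries only, so they had to differ.

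**Figure D1:**
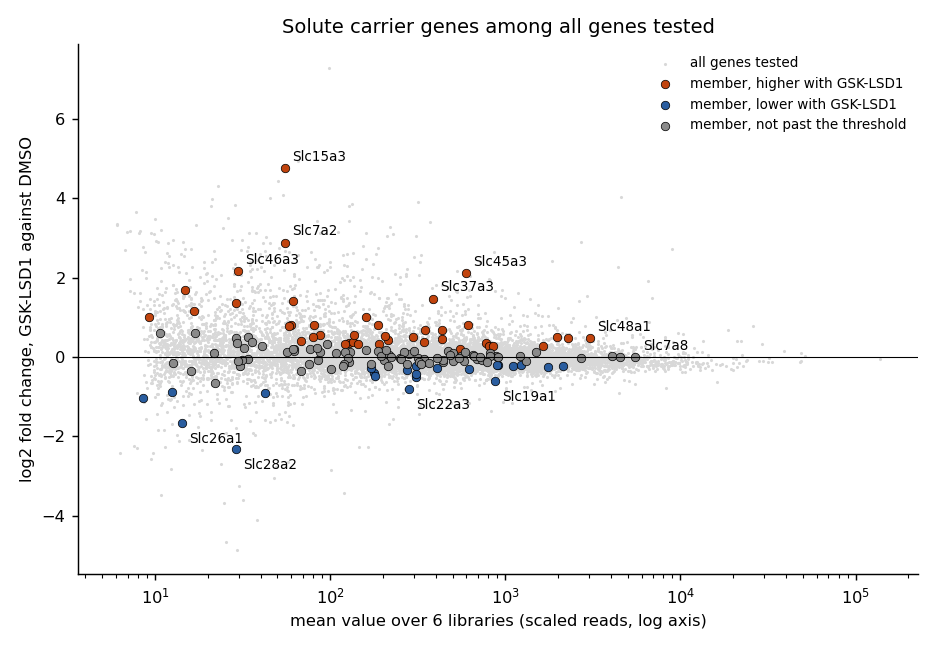
Log2 fold change, GSK-LSD1 against DMSO, of each tested gene (vertical) over its mean scaled reads in 6 libraries (horizontal, log axis); grey dots are all 11588 tested genes and larger points the 146 tested members. The largest rises, Slc15a3 at 4.76 and Slc7a2 at 2.88, belong to members with few reads under DMSO, while Slc7a8, the member with the highest mean, lies at -0.01.

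Peptide and amino acid carriers held the largest rises. Slc15a3 (chr19:10839727-10859362, plus strand, GRCm38) is a proton-driven carrier of peptides and histidine in lysosomes and endosomes, and had 109, 119 and 92.5 scaled reads in the GSK-LSD1 libraries, against 2.93, 6.94 and 0.995 in the DMSO libraries. The GSK-LSD1 libraries held 317 reads of it in all and the DMSO libraries 11, a 29.5-fold ratio of means, with a log2 fold change of 4.76 (SE 0.33, limma adjusted p = 1.62e-14). Slc15a3 passed the filter through the GSK-LSD1 libraries only, so its groups had to differ in this direction. Slc7a2 (chr8:40862396-40922308, plus strand), the cationic amino acid transporter that brings arginine into activated macrophages, had 102, 97.3 and 91.5 scaled reads in the GSK-LSD1 libraries, against 9.77, 9.91 and 18.9 in the DMSO libraries. It was 7.54-fold higher by means (log2 fold change 2.88, SE 0.22, limma adjusted p = 4.71e-13), and the groups were far apart. Both genes rose beside the macrophage markers, Adgre1 having 159, 163 and 154 scaled reads in the GSK-LSD1 libraries, against 20.5, 16.8 and 14.9 in the DMSO libraries; the part of such cells or of such a program in the rises was not tested. Each shares exon bases with an opposite-strand gene, Slc15a3 with Tmem132a and Slc7a2 with Gm26584. The sources used here do not say whether counting used strand, so reads of the partner cannot be told apart. Such an overlap was annotated for 52 of the 208 members, tested or not, and 18 of them were called. Of all tested members 42.5% were called, and of all tested genes 41.1%.

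Of the 22 tested amino acid and peptide carriers (of 30), 7 rose (31.8%), 4 fell (18.2%) and 11 were not called. The background over all tested genes was 20.6% higher and 20.5% lower, and it applies to the class counts below too. No class was tested against it. Slc43a2, a facilitated carrier of large neutral amino acids, had 416, 415 and 446 scaled reads in the GSK-LSD1 libraries, against 267, 275 and 256 in the DMSO libraries, with no overlap (log2 fold change 0.68, limma adjusted p = 4.34e-09). Its relative Slc43a1, which carries leucine and similar amino acids, moved the other way with 153, 157 and 149 scaled reads in the GSK-LSD1 libraries, against 185, 220.0 and 210.0 in the DMSO libraries (log2 fold change -0.41, limma adjusted p = 0.00115), as did Slc43a3, a carrier of purine nucleobases, at -0.20. All 3 members of that family were thus called, in both directions. The glutamine carriers Slc38a6 and Slc38a7 rose with log2 fold changes of 0.56 and 0.46, and Slc7a6, a cationic and neutral amino acid exchanger, rose with 0.27. The glutamate carriers of the Slc1 family went down at low levels. Slc1a1 had 20.4, 27.9 and 38 scaled reads in the GSK-LSD1 libraries, against 57.6, 36.7 and 72.7 in the DMSO libraries, groups that overlap, and Slc1a3 had 7.14, 7.25 and 11.7 scaled reads in the GSK-LSD1 libraries, against 17.6, 15.9 and 15.9 in the DMSO libraries. Their log2 fold changes were -0.92 (limma adjusted p = 0.00152) and -0.88 (limma adjusted p = 0.0335). Without the mean-variance trend Slc1a1 had a limma adjusted p of 0.0654. The call for Slc1a3 was lost when GSK-LSD1 replicate 1 or 2 or DMSO replicate 1, 2 or 3 was left out, with limma adjusted p-values between 0.059 and 0.0978, and DESeq2 gave an adjusted p of 0.143.

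Of the amino acid carriers among the 10 members with the most reads, Slc7a6 rose, as given above. The others, Slc7a8, Slc38a1 and Slc38a10, were not called. Slc7a8, a neutral amino acid exchanger that works as a pair with the heavy chain Slc3a2, had 5350.0, 5550.1 and 5672 scaled reads in the GSK-LSD1 libraries, against 5753, 5632 and 5284 in the DMSO libraries, overlapping groups with a 95% interval of the log2 fold change from -0.10 to 0.08. Slc38a1, a sodium-coupled glutamine carrier, had 4221, 3971 and 4137 scaled reads in the GSK-LSD1 libraries, against 4153, 4156 and 3861 in the DMSO libraries, with an interval from -0.07 to 0.11. For Slc38a10 the interval ran from -0.10 to 0.08. All 3 intervals are narrow and include 0.

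Among carriers of monocarboxylates, the Slc16 family, 2 of 6 tested members rose and 2 fell. Slc16a7, a high-affinity carrier of pyruvate and lactate, had 44.9, 43.5 and 38.9 scaled reads in the GSK-LSD1 libraries, against 15.6, 16.8 and 14.9 in the DMSO libraries, and no library of one group reached the other (log2 fold change 1.37, limma adjusted p = 9.87e-06). Slc16a13, whose human counterpart has been linked to lactate transport, had 96.9, 106 and 107 scaled reads in the GSK-LSD1 libraries, against 60.5, 68.4 and 48.8 in the DMSO libraries (log2 fold change 0.80, limma adjusted p = 3.92e-05). Slc16a10, which despite its family carries aromatic amino acids and thyroid hormone, had 265, 231 and 264 scaled reads in the GSK-LSD1 libraries, against 379.9, 349 and 355 in the DMSO libraries and was lower (log2 fold change -0.51, limma adjusted p = 3.90e-06). Slc16a12, known in humans as a creatine carrier, was called lower at a log2 fold change of -1.04 from very few reads. It passed the filter through the DMSO libraries only, so its groups had to differ in this direction. Its call was lost with the replicate block (adjusted p = 0.0608) and without GSK-LSD1 replicate 1 or 3 or any single DMSO replicate (limma adjusted p from 0.0652 to 0.19), and DESeq2 gave an adjusted p of 0.162. Slc16a6 and Slc16a4 were not called, at a log2 fold change of 0.02 and 0.62.

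Sugar carriers and related families included 3 of the 11 members that rose at least 2-fold. Slc45a3 (chr1:131962967-131982969, plus strand), also called prostein and grouped with sucrose-type carriers, had 1022, 950.2 and 929 scaled reads in the GSK-LSD1 libraries, against 222, 228 and 216 in the DMSO libraries. With 3 tight libraries on each side it was 4.36-fold higher by means (log2 fold change 2.12, SE 0.07, limma adjusted p = 3.28e-24), and its log2 fold change stayed between 2.08 and 2.15 in all 15 alternatives. The Slc37 family, sugar phosphate carriers of the endoplasmic reticulum and related compartments, split. Slc37a3, which in human cells helps release bisphosphonates from lysosomes, had 568, 542 and 604 scaled reads in the GSK-LSD1 libraries, against 222, 192 and 202 in the DMSO libraries (log2 fold change 1.47, limma adjusted p = 1.08e-17). Slc37a2, a phosphate-linked glucose 6-phosphate antiporter, rose at low level with 28.6, 24.8 and 17.5 scaled reads in the GSK-LSD1 libraries, against 10.7, 8.92 and 9.95 in the DMSO libraries (log2 fold change 1.16). Slc37a4, the glucose 6-phosphate translocase needed for glucose release, had 271, 238 and 273 scaled reads in the GSK-LSD1 libraries, against 361, 331 and 368 in the DMSO libraries and was lower (log2 fold change -0.44, limma adjusted p = 4.84e-05). Slc37a1 was not called at a log2 fold change of -0.23, so the 4 paralogs gave 2 higher, 1 lower and 1 not called. Slc37a1 was called lower under quantile scaling (log2 fold change -0.36, adjusted p = 0.0276).

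The other sugar carriers moved less. Slc2a6, a hexose carrier of lysosomes, had 360.1, 344 and 333 scaled reads in the GSK-LSD1 libraries, against 256, 211 and 271 in the DMSO libraries (log2 fold change 0.50, limma adjusted p = 2.02e-05). Slc2a9, a urate carrier, Slc50a1, a sugar carrier of the Golgi and plasma membrane, and Slc5a3, which brings in myo-inositol, were not called. Slc5a6, a carrier of biotin and pantothenate that sits in this class by its family, had a log2 fold change of -0.23 and an adjusted p of 0.0545 by limma, just outside the threshold, and was called lower under quantile scaling (adjusted p = 0.0216) and without DMSO replicate 3 (adjusted p = 0.0197). In total 4 of 13 tested members of the class rose, 1 fell and 8 were not called.

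**Figure D2:**
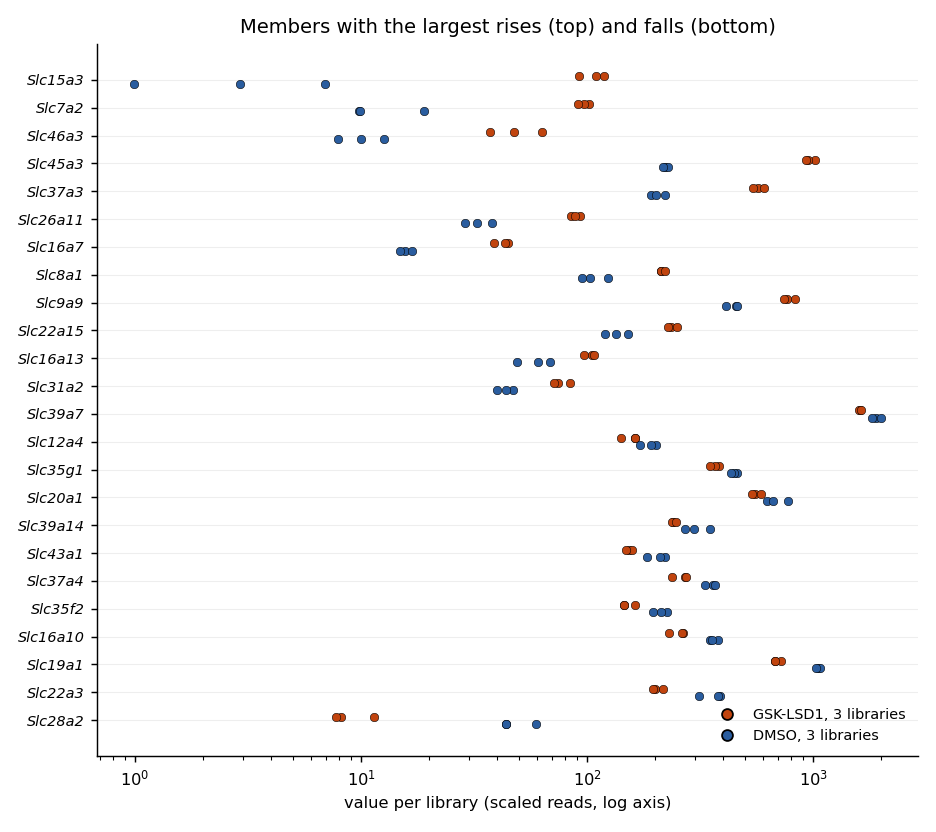
Scaled reads per library (horizontal, log axis) of the 12 largest rises (top) and 12 largest falls (bottom) among called members with a mean of at least 20 and no overlap between groups; each point is 1 of 3 GSK-LSD1 or 3 DMSO libraries. The gap between groups is wide for Slc15a3, Slc7a2 and Slc28a2 and narrow for Slc39a7 and Slc12a4.

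Nucleoside carriers held the deepest called fall. Slc28a2 (chr2:122426477-122461137, plus strand), which concentrates purine nucleosides with sodium, had 8.16, 11.4 and 7.79 scaled reads in the GSK-LSD1 libraries, against 43.9, 59.5 and 43.8 in the DMSO libraries, and was 5.39-fold lower by means with GSK-LSD1 (log2 fold change -2.31, SE 0.26, limma adjusted p = 4.84e-09). The equilibrative carriers, which let nucleosides follow their gradient, went the other way or were not called. Slc29a1, the main equilibrative nucleoside transporter and a route for nucleoside drugs, had 2442, 2275 and 2194 scaled reads in the GSK-LSD1 libraries, against 1621, 1699 and 1589.7 in the DMSO libraries (log2 fold change 0.49, limma adjusted p = 2.82e-10). Slc29a3, its lysosomal relative, rose with a log2 fold change of 0.33, a call lost without GSK-LSD1 replicate 1 (limma adjusted p = 0.059) and without DMSO replicate 2 (limma adjusted p = 0.0565). Slc29a2 was not called at a log2 fold change of -0.30 (limma adjusted p = 0.062), but was called lower under quantile scaling (adjusted p = 0.00476) and without DMSO replicate 2 (adjusted p = 0.0372).

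Vitamin carriers gave 2 rises and 1 fall among 6 tested members. Slc46a3, placed here by its relation to the folate carrier Slc46a1 and itself a lysosomal carrier, had 63.3, 37.3 and 47.7 scaled reads in the GSK-LSD1 libraries, against 12.7, 7.93 and 9.95 in the DMSO libraries (log2 fold change 2.16, SE 0.26, limma adjusted p = 2.44e-08). Slc52a3, a riboflavin carrier, had 66.3, 74.5 and 80.8 scaled reads in the GSK-LSD1 libraries, against 41.0, 35.7 and 51.8 in the DMSO libraries (log2 fold change 0.78, limma adjusted p = 3.68e-04). Its relative Slc52a2 was not called at a log2 fold change of -0.16, but was called lower under quantile scaling (log2 fold change -0.19, adjusted p = 0.0483). Slc19a1, the reduced folate carrier that also takes up methotrexate, had 674, 719 and 678 scaled reads in the GSK-LSD1 libraries, against 1045, 1075 and 1030.3 in the DMSO libraries. That fall was even across libraries (log2 fold change -0.60, SE 0.06, limma adjusted p = 3.90e-11), whereas the thiamine carrier Slc19a2 was not called, with a 95% interval of the log2 fold change from -0.20 to 0.20. Slc46a1 itself, the proton-coupled folate carrier, was too low to test.

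Promoter windows of the members were read next. RefSeq windows (GRCm38.p6, 250 bases before to 50 after the outermost start) were found for 164 of the 208 members and for 27025 genes in all, and 6 motifs were searched on both strands. None of the motifs contains another. The E-box CACGTG, which MYC, USF and TFE-type factors can bind, was in 19.2% of the 26 windows of members that rose, 16.7% of the 18 of members that fell, 8.82% of the 68 of members not called and 7.24% of all promoters. GAGGAAG, a PU.1-type sequence, was in 19.2%, 22.2% and 11.8% of those 3 sets and in 13.5% of all promoters. The C/EBP sequence TTGCNNAA was in 3.85%, 5.56% and 8.82%, with 10.7% of all promoters. The metal response sequences TGCACNC and TGCGCNC were in 19.2%, 33.3% and 45.6%, with 25.6% of all promoters. The ATF4 sequence TGATGNAA was in 3.85%, 0% and 5.88%, with 4.06% of all, and the GFI1 core AAATCAC was in 0%, 0% and 1.47%, with 3.16% of all. With 26 and 18 windows, a share moves by several percentage points with 1 gene, so these are descriptions with no test.

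The 250 bases upstream of 6 of these members are shown because they carry an E-box or PU.1-type match, or, for Slc45a3, because of its large rise with no match of any of the 6 motifs there. Each reads 5′ to 3′ on the gene's strand, ends at the base before the start, and has matches in capitals. They lie at chr1:131962665-131962914 (plus strand), chr6:39377708-39377957 (minus strand), chr3:101924454-101924703 (minus strand), chr2:129198523-129198772 (plus strand), chr2:84840073-84840322 (plus strand) and chr9:53771285-53771534 (plus strand) of GRCm38.p6, in the order given.
Slc45a3: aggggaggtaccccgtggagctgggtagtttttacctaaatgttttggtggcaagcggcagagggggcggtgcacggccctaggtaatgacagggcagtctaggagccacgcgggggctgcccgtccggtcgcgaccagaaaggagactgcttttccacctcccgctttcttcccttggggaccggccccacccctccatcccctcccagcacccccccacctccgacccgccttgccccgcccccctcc
Slc37a3: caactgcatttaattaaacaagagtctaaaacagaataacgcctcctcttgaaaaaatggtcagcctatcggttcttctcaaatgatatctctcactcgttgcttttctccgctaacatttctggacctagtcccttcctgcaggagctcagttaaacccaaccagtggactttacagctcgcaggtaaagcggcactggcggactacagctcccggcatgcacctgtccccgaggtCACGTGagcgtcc
Slc22a15: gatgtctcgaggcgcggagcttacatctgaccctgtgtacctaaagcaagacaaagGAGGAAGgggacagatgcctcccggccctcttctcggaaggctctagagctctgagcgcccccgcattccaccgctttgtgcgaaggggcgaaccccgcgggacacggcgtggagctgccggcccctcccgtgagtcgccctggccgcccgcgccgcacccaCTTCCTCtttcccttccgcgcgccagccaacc
Slc20a1: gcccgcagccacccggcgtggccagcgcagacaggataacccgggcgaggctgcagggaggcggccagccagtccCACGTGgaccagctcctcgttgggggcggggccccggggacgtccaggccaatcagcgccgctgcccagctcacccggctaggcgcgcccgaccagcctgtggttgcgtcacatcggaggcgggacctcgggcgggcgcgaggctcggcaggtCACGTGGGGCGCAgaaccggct
Slc43a1: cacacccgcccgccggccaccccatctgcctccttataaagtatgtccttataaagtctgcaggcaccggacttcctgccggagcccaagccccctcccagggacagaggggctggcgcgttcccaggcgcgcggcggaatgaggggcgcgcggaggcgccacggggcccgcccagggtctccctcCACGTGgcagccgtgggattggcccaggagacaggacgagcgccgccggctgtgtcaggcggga
Slc35f2: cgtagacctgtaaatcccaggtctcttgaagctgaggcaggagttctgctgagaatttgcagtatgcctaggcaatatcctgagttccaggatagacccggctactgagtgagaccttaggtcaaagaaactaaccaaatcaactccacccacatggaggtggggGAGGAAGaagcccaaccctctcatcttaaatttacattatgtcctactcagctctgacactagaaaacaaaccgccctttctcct
The capitals are an E-box in Slc37a3 and Slc43a1, an E-box far upstream in Slc20a1 and a second one there that runs straight on into a metal response match, a PU.1-type match on each strand in Slc22a15, and 1 in Slc35f2. Slc37a3 and Slc22a15 rose and the other genes with capitals fell, so the same letters stand before members of both directions. The shares above also count matches outside the bases shown. Among these genes they are a metal response match after the start of Slc45a3 and a PU.1-type match across the start of Slc43a1.

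Carriers of inorganic ions and of pH formed the largest class, with 24 tested of 38. Of these, 9 rose (37.5%), 2 fell (8.33%) and 13 were not called, against a background of 20.6% higher and 20.5% lower. Slc8a1, the sodium-calcium exchanger that drives calcium out of the cell, had 211, 211 and 222 scaled reads in the GSK-LSD1 libraries, against 124, 95.1 and 103 in the DMSO libraries (log2 fold change 1.00, SE 0.11, limma adjusted p = 3.20e-09). Slc26a11, an anion carrier for sulfate and chloride, had 92.8, 84.9 and 88.6 scaled reads in the GSK-LSD1 libraries, against 38.1, 32.7 and 28.9 in the DMSO libraries (log2 fold change 1.40, limma adjusted p = 2.11e-08). Both stood clear of the DMSO range in each library. Slc9a9, a sodium-proton exchanger of recycling endosomes, had 762, 834 and 744 scaled reads in the GSK-LSD1 libraries, against 455, 411 and 461 in the DMSO libraries (log2 fold change 0.82, limma adjusted p = 1.11e-12), and Slc9a2, its plasma membrane relative, rose at low level with 21.4, 25.9 and 22.4 scaled reads in the GSK-LSD1 libraries, against 6.84, 4.95 and 7.96 in the DMSO libraries (log2 fold change 1.69). Slc9a2 passed the filter through the GSK-LSD1 libraries only, so its groups had to differ in this direction.

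Among cation-chloride cotransporters, which set cell chloride and volume, the potassium-chloride cotransporter Slc12a4 was lower at a log2 fold change of -0.28, a call lost without GSK-LSD1 replicate 3 (limma adjusted p = 0.164), without DMSO replicate 1 (limma adjusted p = 0.126) and without DMSO replicate 2 (limma adjusted p = 0.087). It was also lost without the mean-variance trend (limma adjusted p = 0.0551) and with DESeq2 (adjusted p = 0.107). Slc4a7, a sodium-bicarbonate cotransporter that loads base into the cell, rose at a log2 fold change of 0.28, and the anion exchanger Slc4a2 was not called at -0.05. Slc26a1, a sulfate and oxalate carrier, had 6.12, 8.28 and 4.87 scaled reads in the GSK-LSD1 libraries, against 24.4, 20.8 and 20.9 in the DMSO libraries, a lower level from few reads (log2 fold change -1.66, limma adjusted p = 1.16e-04). Slc26a1 passed the filter through the DMSO libraries only, so its groups had to differ in this direction. It overlaps Idua on the other strand.

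Metal carriers had the largest share of members tested, 25 of 26. Of these, 4 rose (16%), 3 fell (12%) and 18 were not called, against a background of 20.6% higher and 20.5% lower. Every log2 fold change of the class lay between -0.33 and 0.80. Slc31a2, a copper carrier, had 83.7, 74.5 and 71.0 scaled reads in the GSK-LSD1 libraries, against 46.9, 43.6 and 39.8 in the DMSO libraries (log2 fold change 0.80, limma adjusted p = 1.48e-04), while its neighbour Slc31a1, the main copper importer, had 670.3, 672 and 645 scaled reads in the GSK-LSD1 libraries, against 663, 629 and 637 in the DMSO libraries and was not called. The pair lies 62316 bases apart on chromosome 4. Slc48a1, which moves heme out of lysosomes and endosomes, had 3532, 3509 and 3544 scaled reads in the GSK-LSD1 libraries, against 2611, 2493 and 2514 in the DMSO libraries, a tight rise (log2 fold change 0.47, SE 0.04, limma adjusted p = 4.19e-11), though its exons overlap Hdac7 on the other strand.

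The zinc carriers were counted by family. None of the 7 Slc30 members, which move zinc out of the cytosol, was called by limma, and all their log2 fold changes lay between -0.11 and 0.19. At an unadjusted p under 0.05 there was 1, Slc30a5, and edgeR and DESeq2 called 0 of the 7. Of 12 tested Slc39 members, which bring zinc into the cytosol, 2 rose and 3 fell. Slc39a7, which releases zinc from the endoplasmic reticulum and Golgi, had 1618, 1591 and 1627 scaled reads in the GSK-LSD1 libraries, against 1904, 1997 and 1818 in the DMSO libraries (log2 fold change -0.24, limma adjusted p = 1.23e-04), and Slc39a1, a plasma membrane importer, had 1009, 1014 and 1028 scaled reads in the GSK-LSD1 libraries, against 1165, 1158 and 1252 in the DMSO libraries (log2 fold change -0.23). Slc39a14, which takes up zinc, iron and manganese, was lower at a log2 fold change of -0.33, with a limma adjusted p of 0.0502 without DMSO replicate 1. Slc39a6 was higher at a log2 fold change of 0.27. Slc39a4, an intestinal-type zinc importer, was higher at a log2 fold change of 0.51, a call lost under quantile scaling (adjusted p = 0.123), without the mean-variance trend (limma adjusted p = 0.0831), without GSK-LSD1 replicate 1 (limma adjusted p = 0.0641) and without DMSO replicate 3 (limma adjusted p = 0.115). The zinc-induced metallothionein genes Mt1 and Mt2, which are no members, had log2 fold changes of -0.50 and -0.63, both called lower, and the zinc-sensing factor Mtf1 was not called at 0.06.

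Fatty acid and choline carriers had 4 tested members. Slc27a4, a fatty acid transport protein that also activates fatty acids, had 253, 252 and 233 scaled reads in the GSK-LSD1 libraries, against 184, 195 and 172 in the DMSO libraries (log2 fold change 0.42, limma adjusted p = 3.99e-04), and Slc27a1, its relative, was higher at 0.36. The Slc27a1 call was lost under quantile scaling (adjusted p = 0.12) and without GSK-LSD1 replicate 1, GSK-LSD1 replicate 2 or DMSO replicate 3 (limma adjusted p from 0.0649 to 0.159), and also without the mean-variance trend (limma adjusted p = 0.0769) and with DESeq2 (adjusted p = 0.0598). Slc44a2, a choline carrier with a high level in these cells, had 4459, 4478 and 4585 scaled reads in the GSK-LSD1 libraries, against 4503, 4540.3 and 4547 in the DMSO libraries, with a 95% interval from -0.09 to 0.08. Of the neurotransmitter family, Slc6a9, a glycine carrier that erythroid and nerve cells use, had 524, 549 and 543 scaled reads in the GSK-LSD1 libraries, against 353, 349.8 and 303 in the DMSO libraries (log2 fold change 0.69, limma adjusted p = 1.06e-09), and its exons overlap B4galt2, Ccdc24 and Gm17114 on the other strand. Slc6a6, the taurine carrier, was not called at a log2 fold change of 0.12 (limma adjusted p = 0.0661), but was called higher under quantile scaling (adjusted p = 0.0184) and without DMSO replicate 1 (adjusted p = 0.0069). The creatine carrier Slc6a8 was low and not called.

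Nucleotide sugar carriers, nearly all of family Slc35 and listed as Golgi or endoplasmic reticulum carriers, gave 3 rises, 5 falls and 14 members not called among 22 tested. Slc35b4, a carrier of UDP-xylose and UDP-N-acetylglucosamine, had 2757, 2541 and 2712 scaled reads in the GSK-LSD1 libraries, against 1988, 1879 and 1873 in the DMSO libraries (log2 fold change 0.48, limma adjusted p = 1.99e-10). Slc35a5 and Slc35e2, whose substrates are less well known, rose at a log2 fold change of 0.54 and 0.39. The falls were smaller in size than 0.5 on the log2 scale. Slc35f2, which in human cells takes up the drug YM155 at the plasma membrane, had 163, 145 and 146 scaled reads in the GSK-LSD1 libraries, against 225, 213 and 196 in the DMSO libraries (log2 fold change -0.48, limma adjusted p = 2.18e-04). Slc35g1 had 384, 366 and 350.4 scaled reads in the GSK-LSD1 libraries, against 460.0, 447 and 434 in the DMSO libraries (log2 fold change -0.29). Slc35a4, a Golgi member, fell at a log2 fold change of -0.23, and its exons overlap Apbb3 on the other strand. Slc35c1, the GDP-fucose carrier needed for selectin ligands, fell at a log2 fold change of -0.21. The carriers of CMP-sialic acid (Slc35a1), UDP-galactose (Slc35a2), UDP-N-acetylglucosamine (Slc35a3) and the sulfate donor PAPS (Slc35b2 and Slc35b3), and the acetyl-CoA carrier Slc33a1, were not called, though Slc35a3 was called higher without DMSO replicate 3 (log2 fold change 0.20, limma adjusted p = 0.0316).

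Organic ion carriers gave 2 rises and 2 falls among 7 tested members. Slc22a3, a polyspecific organic cation carrier for monoamines and histamine, had 200, 216 and 196 scaled reads in the GSK-LSD1 libraries, against 386, 312 and 380.3 in the DMSO libraries, and every GSK-LSD1 library was below every DMSO library (log2 fold change -0.81, SE 0.09, limma adjusted p = 2.79e-09). Its exons overlap Plg on the other strand. Slc22a15, a carrier of zwitterions such as ergothioneine in humans, had 235, 229 and 250.1 scaled reads in the GSK-LSD1 libraries, against 134, 119.9 and 152 in the DMSO libraries (log2 fold change 0.81, limma adjusted p = 5.62e-08). Slc22a17, an atypical member studied as a lipocalin receptor, was called higher at a log2 fold change of 1.02 from few reads. It passed the filter through the GSK-LSD1 libraries only, so its groups had to differ in this direction. It kept its call in 6 of 14 alternatives, losing it under quantile scaling (log2 fold change 0.55, adjusted p = 0.266), with DESeq2 (adjusted p = 0.147), with the replicate block (adjusted p = 0.0546), without each GSK-LSD1 replicate, and without DMSO replicate 1 or 3 (limma adjusted p from 0.0583 to 0.123). Slc10a3, an orphan of the bile acid family, was called lower at a log2 fold change of -0.24. Its groups overlap and the call was lost without GSK-LSD1 replicate 2 or 3 or DMSO replicate 1 or 2 (limma adjusted p from 0.091 to 0.177), without the filter (limma adjusted p = 0.051), without the mean-variance trend (limma adjusted p = 0.163) and with DESeq2 (adjusted p = 0.0976). The carnitine carrier Slc22a5 was not called at a log2 fold change of -0.02 (95% interval -0.25 to 0.21).

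Phosphate and vesicle anion carriers had 5 tested members. Slc20a1, a sodium-phosphate carrier that also serves as a retrovirus receptor, had 551, 537 and 589 scaled reads in the GSK-LSD1 libraries, against 776, 623 and 665 in the DMSO libraries (log2 fold change -0.29, limma adjusted p = 7.53e-04, and 0.0548 without the mean-variance trend). Its relative Slc20a2 was not called at a log2 fold change of -0.17, but was called lower without DMSO replicate 3 (log2 fold change -0.28, limma adjusted p = 0.0137). Slc17a5, sialin, which exports sialic acid from lysosomes, had 251, 241 and 235 scaled reads in the GSK-LSD1 libraries, against 179.7, 173 and 150.3 in the DMSO libraries (log2 fold change 0.53, limma adjusted p = 3.00e-05). Slc17a9, the vesicular nucleotide carrier that loads ATP, was not called at a log2 fold change of 0.15, but was called higher without GSK-LSD1 replicate 1 (log2 fold change 0.24, limma adjusted p = 0.0389). Among the 5 tested rows that name no carrier, the scaffold gene Slc9a3r2 was called higher at a log2 fold change of 0.40, a call kept in 8 of 15 alternatives and lost without each GSK-LSD1 replicate and without DMSO replicate 1 (limma adjusted p from 0.0543 to 0.107), without the filter (limma adjusted p = 0.0512), under quantile scaling (adjusted p = 0.3) and with DESeq2 (adjusted p = 0.116). Its relative Slc9a3r1, which ties carriers to the actin cortex, had a log2 fold change of 0.04 and was not called.

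**Figure D3:**
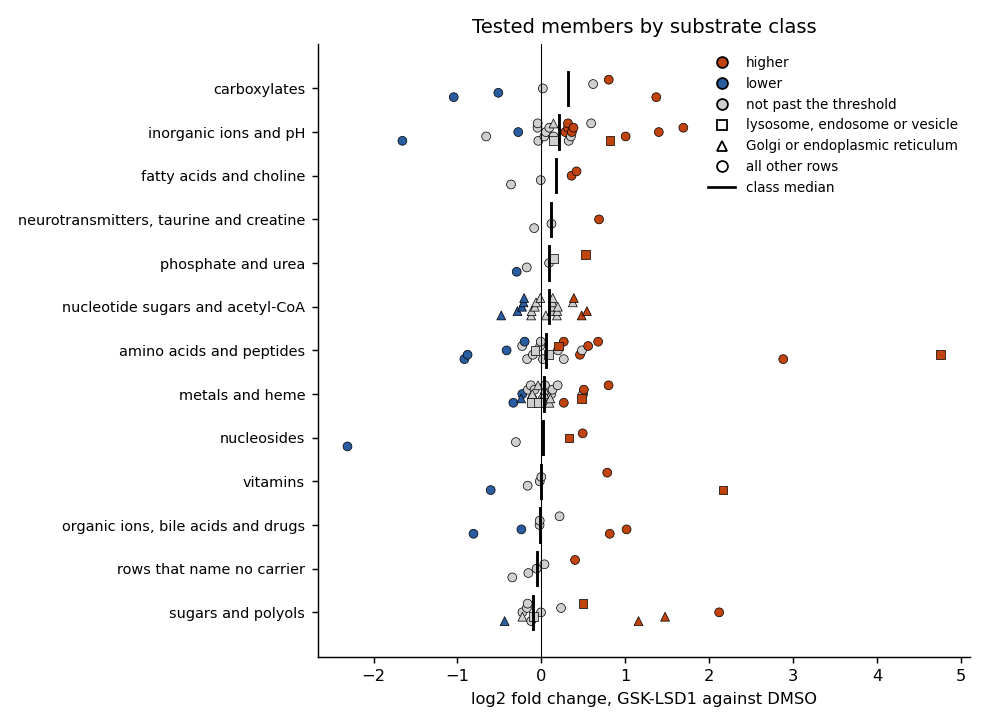
Log2 fold change, GSK-LSD1 against DMSO (horizontal), of the 146 tested members by substrate class (rows, ordered by class median, the black bars); colour gives the limma call and shape the compartment list. Squares, the lysosome, endosome or vesicle list, include 8 higher and 0 lower calls, while triangles, the Golgi or endoplasmic reticulum list, include 5 higher and 7 lower calls.

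Sorted by compartment instead of substrate, the 15 tested carriers of lysosomes, endosomes and vesicles gave 8 higher and 0 lower calls by limma with 7 not called, and a median log2 fold change of 0.21. At an unadjusted p under 0.05, and by edgeR and DESeq2, the count of lower members was 0 as well. The background among all tested genes was 20.6% higher and 20.5% lower, with a median of -0.01. The 8 were Slc15a3, Slc46a3, Slc9a9, Slc17a5, Slc2a6, Slc48a1, Slc29a3 and Slc36a1, a lysosomal amino acid exporter that had 547, 565 and 659.9 scaled reads in the GSK-LSD1 libraries, against 513, 509 and 507 in the DMSO libraries. The call for Slc36a1 was lost without GSK-LSD1 replicate 3 (limma adjusted p = 0.204) and without the mean-variance trend (limma adjusted p = 0.0951), so this count rests in part on small changes. The count also holds Slc15a3, which passed the filter through the GSK-LSD1 libraries only and so had to be higher. The 34 tested Golgi and endoplasmic reticulum carriers gave 5 higher and 7 lower calls (median 0.05), and the 91 tested members outside these lists gave 25 higher and 15 lower (median 0.02). Whether the compartments differ from each other was not tested, and the lists are a hand assignment, made with earlier results of these data known. The Golgi and endoplasmic reticulum list includes Slc37a3 (log2 fold change 1.47) and Slc35f2 (log2 fold change -0.48). Above, Slc37a3 was tied to lysosomes and Slc35f2 to the plasma membrane in human cells, so the counts depend on such placings.

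Carriers under other names were counted beside the members. Of 17 tested carriers without an Slc symbol, 9 were higher, 2 lower and 6 not called. For this and the gene lists that follow, the background over all tested genes was 20.6% higher and 20.5% lower. No list was tested against it. The lysosomal cystine exporter Ctns had 197, 211 and 206 scaled reads in the GSK-LSD1 libraries, against 148, 136 and 126 in the DMSO libraries (log2 fold change 0.58), and Pqlc3, a PQ-loop protein, had a log2 fold change of 0.76. Mfsd2a, which takes up lysophospholipids, had 45.9, 43.5 and 49.6 scaled reads in the GSK-LSD1 libraries, against 94.7, 97.1 and 90.6 in the DMSO libraries (log2 fold change -1.01), and Spns2, an exporter of sphingosine 1-phosphate, fell at -0.33. Of the 15 carriers set aside by the rule, 14 could be tested, and 3 were higher, 8 lower and 3 not called. Of these, Slc11a1, the metal carrier of macrophage phagosomes, had a log2 fold change of 3.13, and the lactate exporter Slc16a3 one of -1.37. The red cell anion exchanger Slc4a1 had 0, 1.04 and 2.92 scaled reads in the GSK-LSD1 libraries, against 43.0, 46.6 and 59.7 in the DMSO libraries. Slc11a1 passed the filter through the GSK-LSD1 libraries only and Slc4a1 through the DMSO libraries only. The groups of both genes thus had to differ in these directions.

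Carrier partner proteins and other transporters of the plasma membrane were read beside the members. Among 8 tested partner genes, a list that includes Slc9a3r1 and Slc9a3r2, 3 were higher, 1 lower and 4 not called. Emb and Bsg encode the embigin and basigin chaperones of lactate carriers, and they went opposite ways: Emb had 10024, 10236 and 10010.0 scaled reads in the GSK-LSD1 libraries, against 3432, 3539.5 and 3846 in the DMSO libraries (log2 fold change 1.49), and Bsg had 3883, 3823 and 3846 scaled reads in the GSK-LSD1 libraries, against 4539, 4838 and 4476 in the DMSO libraries (log2 fold change -0.26). Of 9 tested ABC transporters of the plasma membrane, 4 were higher, 1 lower and 4 not called. Abcb1b, a drug efflux pump, had 134, 130.4 and 123 scaled reads in the GSK-LSD1 libraries, against 54.7, 44.6 and 41.8 in the DMSO libraries (log2 fold change 1.44), while Abcg1, a sterol exporter, fell at -0.35. Both tested organic anion carriers of the Slco family fell: Slco2b1 had 37.7, 51.8 and 61.3 scaled reads in the GSK-LSD1 libraries, against 231, 249.7 and 248 in the DMSO libraries (log2 fold change -2.28), and Slco4a1 fell at -0.49.

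To compare levels between genes, scaled reads were divided by the length of annotated exons. On this scale of scaled reads per kb, Slc7a8 (level 1104 with GSK-LSD1 and 1110.2 with DMSO) and Slc48a1 (level 1283 with GSK-LSD1 and 923 with DMSO) were highest. Under GSK-LSD1 the heme carrier was thus above the neutral amino acid carrier, and under DMSO it was below. Slc39a7 had a level of 624 per kb with GSK-LSD1 and 738 with DMSO, and Slc35a4 had a level of 597 with GSK-LSD1 and 701 with DMSO. Slc29a1 had a level of 575 per kb with GSK-LSD1 and 408 with DMSO. The strongest risers stood far lower: the level of Slc15a3 was 19.5 per kb with GSK-LSD1 and 0.659 with DMSO, and that of Slc7a2 was 10.6 with GSK-LSD1 and 1.41 with DMSO. The 10 members with the most scaled reads took 41.6% to 41.8% of the members' total in GSK-LSD1 libraries and 41.1% to 41.3% in DMSO libraries.

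**Figure D4:**
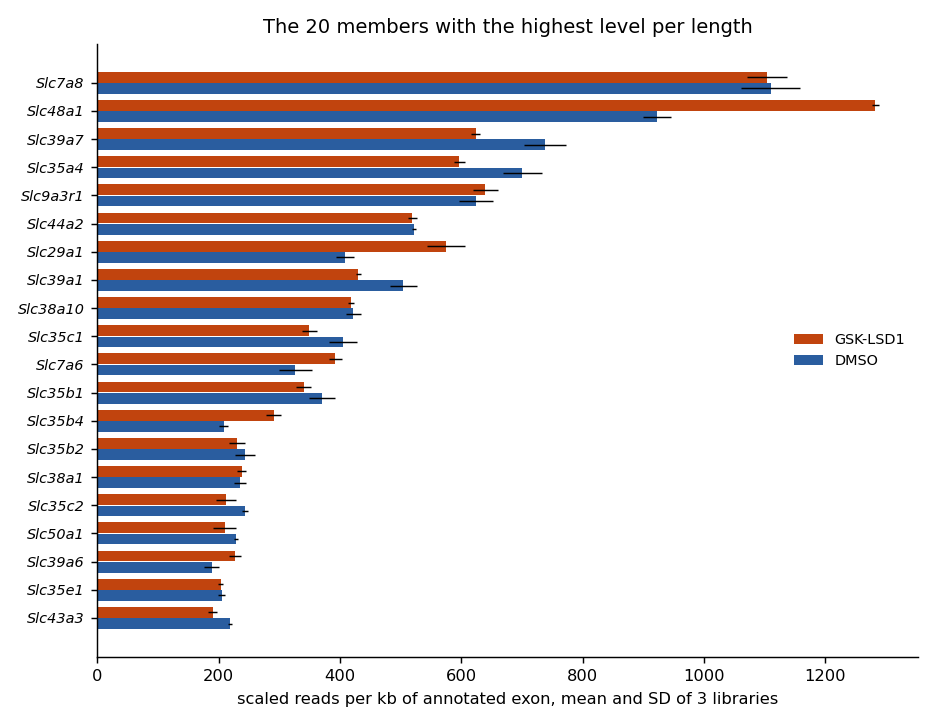
Level in scaled reads per kb of annotated exon (horizontal, from 0) of the 20 members with the highest level; bars are means and lines SDs of 3 libraries, with GSK-LSD1 above DMSO in each pair. Slc48a1 and Slc29a1 have longer GSK-LSD1 bars, while Slc39a7, Slc35a4 and Slc39a1 have longer DMSO bars.

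Members that lie next to each other on a chromosome were not always called alike. A neighbour that was not called or not tested does not show a different movement. Slc43a1 and Slc43a3, 72985 bases apart on chromosome 2 and on the same strand, were both called lower. Slc16a13 rose, while Slc16a11, 372 bases away on chromosome 11 in the other orientation, was too low to test. Slc29a1 rose and Slc35b2, 17529 bases away on chromosome 17, was not called. Slc7a6 rose and the opposite-strand gene Slc7a6os, 2011 bases away on chromosome 8, was not called.

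Of the 62 members left untested, 54 were below 10 scaled reads in every library and 8 reached 10 in some. Among them, 8 were at 0 in all libraries of a group. Named after their values were seen, 2 of them stand out. Slc26a3, a chloride-bicarbonate exchanger, had 3.06, 0 and 0 scaled reads in the GSK-LSD1 libraries, against 29.3, 23.8 and 9.95 in the DMSO libraries, from 3 reads with GSK-LSD1 and 64 with DMSO in all. Slc38a5, a carrier of glutamine and related amino acids, had 1.02, 1.04 and 0.973 scaled reads in the GSK-LSD1 libraries, against 8.79, 10.9 and 11.9 in the DMSO libraries, from 3 reads with GSK-LSD1 and 32 with DMSO. In both, every GSK-LSD1 library was below every DMSO library, and without the filter limma called both lower (adjusted p = 6.18e-06 for Slc26a3 and 4.44e-05 for Slc38a5). They fell beside the erythroid marker Alas2 (log2 fold change -2.68), which passed the filter through the DMSO libraries only and so had to be lower. The part of such cells in these falls was not tested. Without the filter 5 further untested members, Slc16a9, Slc29a4, Slc15a1, Slc35g2 and Slc22a18, were called higher, each from at most 30 reads in the GSK-LSD1 group.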

How the data were processed

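RNA-seq libraries of 3 GSK-LSD1 and 3 DMSO samples were grouped by their titles. The authors deposited a normalised signal, with a value for each gene symbol in each library. The values are whole multiples (within 0.001) of the smallest value of each library, 0.973 to 1.04, so they are read counts divided by a factor. STAR, DESeq2, mm10 and GRCm38 are named without role or version in the submitters' processing notes. The sources used here do not give the counting program, the annotation or the strand setting. Genes were tested with limma 3.58.1 (R 4.3.3), using a mean-variance trend on log2(value + 1), two-sided, for genes with at least 10 in at least 3 of 6 libraries, with Benjamini-Hochberg adjustment and a threshold of 0.05 on the adjusted p. That log2(value + 1) scale makes fold changes smaller for low genes. All values came out whole, so edgeR 4.0.16 and DESeq2 1.42.0 were run as alternatives on the recovered reads. For DMSO replicates 2 and 3 the smallest value is so near 1 that whole reads rest on the multiples alone. The test was tested on simulated counts. Exon lengths, overlaps and distances come from GENCODE vM21 (GRCm38) and promoters from RefSeq.

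Members, substrate classes, compartments and lists were chosen with earlier results of these data known. Members were named as follows: the 12 largest rises and 12 largest falls among called members with a mean of at least 20 and no overlap, up to 3 called in each direction and 2 not called per class, and the 10 with the highest mean; other members appear as relatives or neighbours of these, or because a count is small. Results on a few genes, members and genes of other lists among them, are not reported here, although counts over the members and their classes include them.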

Additional observations from a re-analysis of the deposited data

How the results depend on the processing

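Of the 62 called members, 45 kept their call in every one of the 15 alternatives that gave a value, and no called member changed direction. The count of higher members was 34 to 43 and of lower members 17 to 30 over the alternatives. The labels do not say whether libraries of the same number belong together. Deviations of same-numbered libraries correlated at -0.0241, -0.0276 and -0.00771, and those of other-numbered libraries at -0.00662 to 0.0305. With so few libraries, these values cannot show whether a pairing existed. With the replicate block 39 members were higher and 21 lower, the lost calls being Slc16a12 and Slc22a17. edgeR called 40 higher and 22 lower, the same 62 members, and DESeq2 35 and 18. The count of members at least 2-fold lower was 5 without the filter and 5 with quantile scaling, and 0 with a mean of at least 50, which leaves fewer genes, where the 2-fold higher count was 6. The median log2 fold change of members was 0.00432 with quantile scaling, and 0.0252 to 0.0573 with 1 library left out (lowest without DMSO replicate 3). For reversals other than by the leaving out of a library, the cause was not tested. Uncalled members near 0 changed sign under quantile scaling: Slc35e1 at 0.00283, Slc38a10 at 0.0146, Slc44a2 at 0.0461 and Slc7a8 at 0.0493. With 1 library left out, log2 fold changes ran from -0.044 to 0.0135 for Slc10a7, -0.00275 to 0.0313 for Slc16a6, -0.0489 to 0.0268 for Slc22a5, -0.0537 to 0.0153 for Slc23a2, -0.0343 to 0.00533 for Slc35e1 and -0.0162 to 0.0436 for Slc38a1. They ran from -0.0276 to 0.0101 for Slc38a10, -0.0197 to 0.000292 for Slc44a2, -0.0742 to 0.0358 for Slc45a4, -0.0977 to 0.00699 for Slc4a2, -0.3 to 0.0663 for Slc6a8 and -0.0437 to 0.0177 for Slc7a8. Depth limits members under 10 scaled reads, which were not tested.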
